A study of Homo sapiens with 30 samples.

Results

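The genes described here are 47 that copy DNA or supply its building blocks, followed in the epithelial lung carcinoma line A549 after 24 h with an ethanol extract of a Korean tonifying formula. They are the rows of the deposited table of expected counts whose Ensembl gene ID carries a listed symbol. Each of the 47 symbols matched 1 of the 60675 gene rows, and each of the 47 was abundant enough to test among the 17701 genes tested. The 4 formulas were Samul-tang, Sagunja-tang, Palmul-tang, which joins the herbs of those 2, and Sibjeondaebo-tang, which adds further herbs to Palmul-tang. The low, medium and high doses were 20, 100 and 500 µg/mL of extract. Each dose of Palmul-tang and of Sibjeondaebo-tang was represented by 3 libraries, that of Samul-tang by 2, numbered 2 and 3, and that of Sagunja-tang by 1, numbered 3. The 3 vehicle libraries received DMSO, at 0.1% in the sample labels and 2% in the series text, and the wortmannin arm was not analysed here. The labels number the replicates but do not say that they were separate cultures, so p-values here measure only how these libraries varied, which may be technical.

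Before S phase, the origin recognition complex with CDC6 and CDT1 loads the MCM2 to MCM7 ring onto DNA, and in S phase CDC45 and the GINS complex turn that ring into the active helicase. DNA polymerase alpha with primase starts each strand, PCNA and its RFC loader hold the polymerases delta and epsilon on the template, RPA coats single strands, and FEN1 and LIG1 finish the lagging strand. Ribonucleotide reductase (RRM1, RRM2), thymidylate synthase (TYMS), thymidine kinase (TK1) and dUTPase (DUT) keep the nucleotide pool. Many of these genes are transcribed together at the G1/S transition by E2F factors, and proliferating tumour lines such as A549 express them throughout culture.

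The promoters of these genes are shown for a short element, described below, that was found in 16 of the 40 members with a promoter entry. Whether it went with the direction of change was not tested. RefSeq promoter entries (GRCh38.p14, the 250 bases before a RefSeq gene start) existed for 40 of the 47 members. There were 55 entries in all, since some genes have several starts. CCNE2, GINS4, MCM4, MCM5, POLD3, RPA2 and RPA3 had none. The letters TTTCCCGC, TTTGGCGC, TTTCGCGC and TTTGCCGC, forms of the E2F element, were searched on both strands, and matches may overlap. They occurred in 17 of the 55 member promoters (30.9%), in 2.79% of all 35116 promoters and in 3.48% of the 22198 promoters of protein-coding genes. A match is a description of the letters, not a measured binding site. In the stretches below, written 5′ to 3′ on the strand of the gene, capitals mark the matched letters in either orientation. The first of them, MCM6 at chr2:135876514-135876603 (minus strand, ending 71 bases before the start), holds 4 matches, which overlap in pairs. The PCNA stretch lies at chr20:5126633-5126712 (minus strand), and neither of these stretches overlaps an annotated exon. The other stretches overlap annotated exons of their own genes, by 30 bases in CDT1 and LIG1, 29 in TYMS, 23 in POLE and 12 in E2F1. They lie before the RefSeq start but partly or wholly inside the annotated gene. The others are 30 bases around a match in 3 genes that rose with dose (TYMS at chr18:657603-657632, plus strand, CDT1 at chr16:88803743-88803772, plus strand, and LIG1 at chr19:48170440-48170469, minus strand), in POLE, which fell (chr12:132687343-132687372, minus strand), and in E2F1, which did not pass the test (chr20:33686393-33686422, minus strand).
MCM6: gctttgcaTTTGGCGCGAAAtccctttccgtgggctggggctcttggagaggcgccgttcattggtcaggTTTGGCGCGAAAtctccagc
PCNA: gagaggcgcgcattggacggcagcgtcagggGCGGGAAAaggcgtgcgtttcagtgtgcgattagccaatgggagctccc
TYMS: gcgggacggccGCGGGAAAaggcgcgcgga
CDT1: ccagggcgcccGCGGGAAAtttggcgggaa
LIG1: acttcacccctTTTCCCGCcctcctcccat
POLE: ctgggtgggagcGCGCCAAAtttctcccct
E2F1: tttcGCGGCAAAaaggaTTTGGCGCgtaaa

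Library totals ran from 23986637 to 35159898 expected counts, with a median of 32383996. The cultures carried the epithelial keratins, with KRT8 at 3420 to 4321 CPM and KRT18 at 2345 to 2843 CPM over the group means, while PTPRC of blood cells and VWF of endothelium stayed at or below 0.172 CPM and CDKN2A, which A549 cells have lost, was at 0. CPM here means counts scaled to a common library size with TMM, a factor that centres most genes between libraries. These factors were 0.923 to 0.936 in the high-dose libraries of Sibjeondaebo-tang and 1 to 1.05 in its low-dose libraries. Scaling by library totals alone, an alternative added after the data were seen, therefore moved the median log2 change of all genes between these doses from -0.01 to -0.16, so each change is relative to that centre. Per kilobase of annotated exon, the most abundant member in the vehicle was PCNA at 100.3 CPM per kb, followed by TK1 at 50.1, RRM2 at 39.6 and MCM7 at 38.5, and the least abundant was CCNE2 at 1.15. RNA came from whole cultures, so a change in the share of cells in S phase and a change in RNA per cell cannot be told apart. All titles place the libraries in batch E, but library codes begin differently for vehicle and extract libraries. What that prefix stands for is not stated, and it cannot be told apart from the difference between vehicle and extract. The dose comparisons within a formula use no vehicle library and come first.

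**Figure D1:**
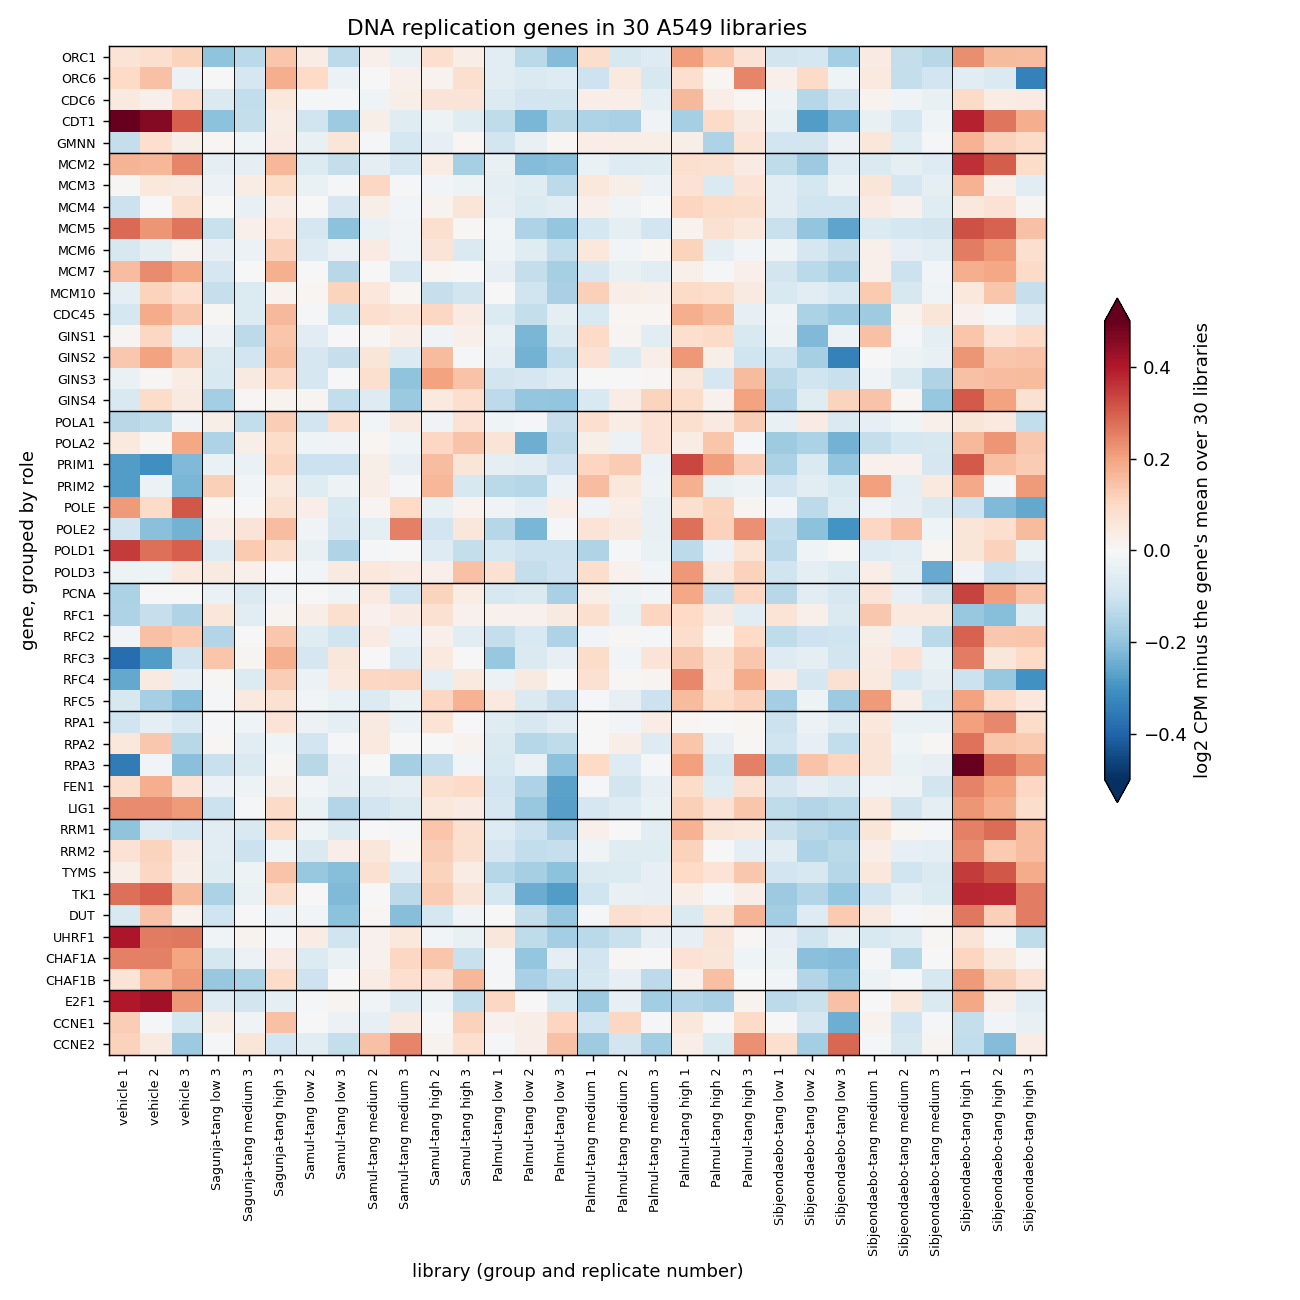
Level of each of the 47 genes (rows, grouped by role) in each of the 30 libraries (columns), as log2 CPM minus the gene's mean over the libraries, with colours saturated beyond 0.5 in either direction. The 3 high-dose libraries of Sibjeondaebo-tang are mostly red, the low-dose libraries mostly blue, and ORC6, RFC1, RFC4 and POLE are blue at that high dose.

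In Sibjeondaebo-tang most of the replication machinery was higher at the high than at the low dose. Of the 47 members 32 rose, 4 fell (ORC6, POLE, RFC1 and RFC4) and 11 did not pass, where 38.4% of all genes tested passed, 18.5% higher and 19.9% lower. The median log2 change of the members was 0.25 against -0.01 for all genes tested, and 42 of 47 were positive against 48.6% of all genes. The rises were small, the largest being 42.2% in TK1. In 31 members every high-dose library lay above every low-dose library, against 22.7% of all genes, and in 2 every one lay below, against 24.7%. With scaling by library totals the split was 12 up and 5 down, the members' median 0.09 and that of all genes -0.16, and CDC6 and MCM4 turned from higher to lower without passing (-0.01 and -0.02). Of the 36 calls 12 held under every alternative tried, those of CDT1, GINS2, LIG1, MCM2, MCM5, MCM7, POLA2, PRIM1, RRM1, RRM2, TK1 and TYMS, all higher. In Palmul-tang 14 members rose and 0 fell, where 3.47% of all genes passed, 1.46% higher and 2.02% lower. The members' median was 0.16 against 0.00 for all genes, and 45 of 47 were positive against 51.2%. The 2 formulas share no library in these comparisons, and 14 members rose in both, which is 14 of the 14 in Palmul-tang and 14 of the 32 in Sibjeondaebo-tang. In Samul-tang 1 member, TYMS, rose and 0 fell by edgeR's quasi-likelihood test and by DESeq2, where 1.34% of all genes passed, 0.604% higher and 0.74% lower. On library totals 8 rose and 0 fell in Palmul-tang, with a median of 0.14 against -0.02 for all genes, and 0 passed in Samul-tang. Of the 14 calls in Palmul-tang only LIG1, RRM1 and TYMS held under every alternative tried, and the count was 6 without low-dose replicate 2, 5 without low-dose replicate 3, 4 without high-dose replicate 1 and 8 in a fit of only those 2 groups. At an unadjusted p under 0.05, 12 members were higher and 1 lower in Samul-tang, and 34 higher and 0 lower in Palmul-tang. The share of all genes at that unadjusted threshold is not given here, so these counts have no background beside them.

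**Figure D2:**
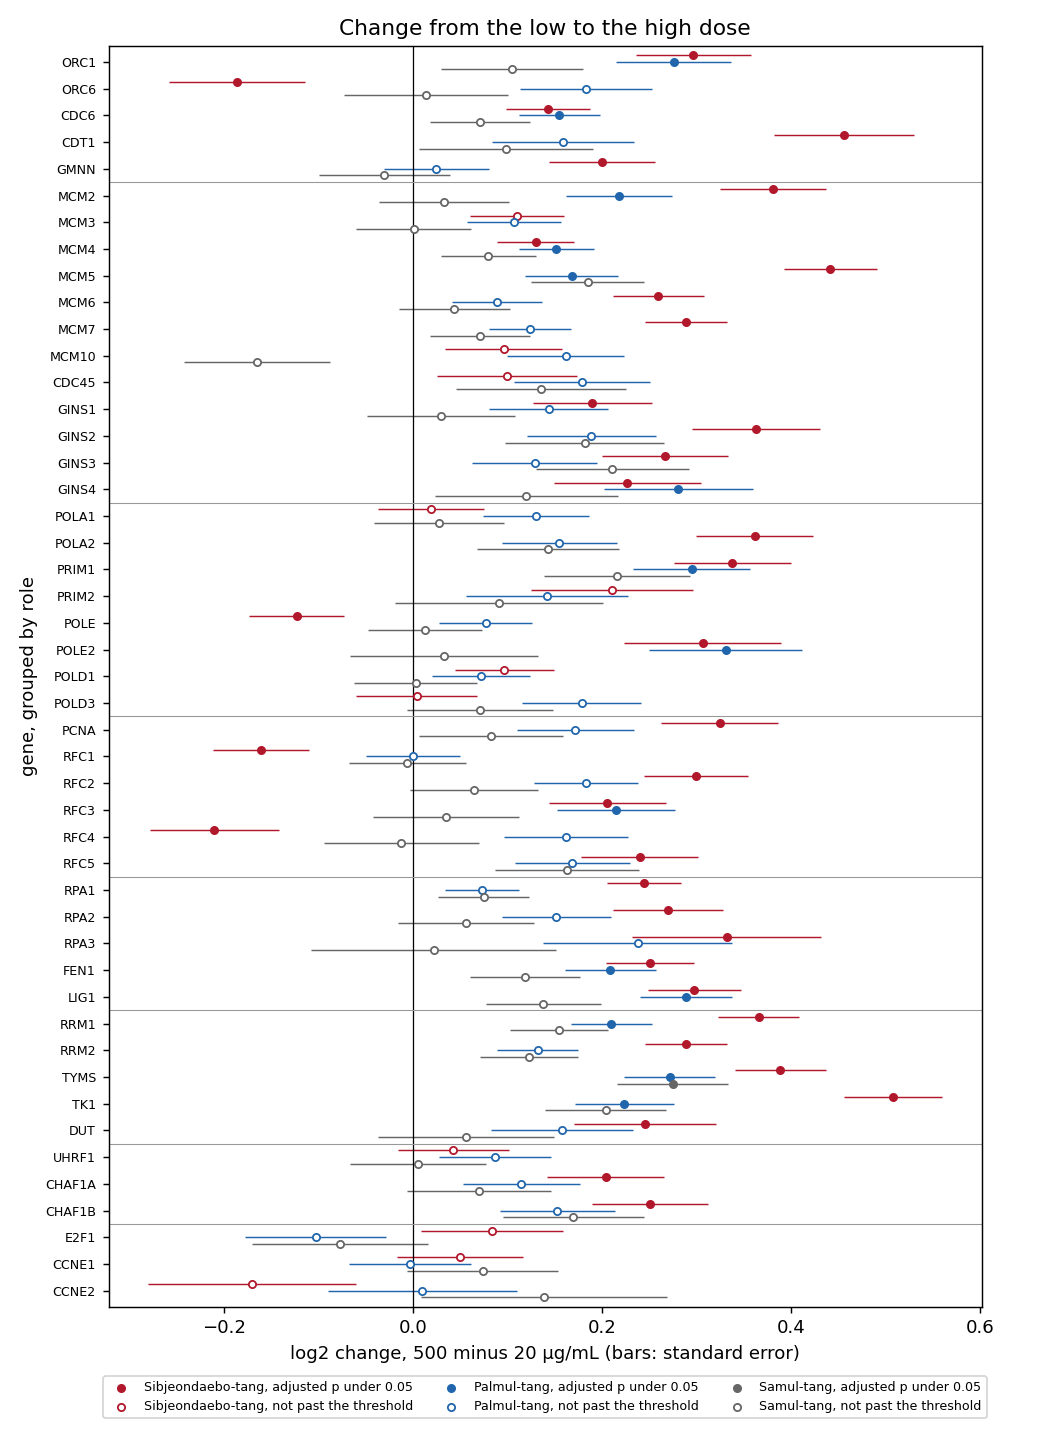
Log2 change from 20 to 500 µg/mL (horizontal axis, with standard error) of each gene (rows, grouped by role) in 3 formulas, with filled points for an adjusted p under 0.05. Most points lie right of 0, those of Sibjeondaebo-tang farthest, and RFC4, ORC6, RFC1 and POLE of that formula lie left of 0.

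Nucleotide supply had the largest median change of the role groups. All 5 genes of this group rose in Sibjeondaebo-tang, with a median log2 change of 0.37, though DUT not on library totals (0.437) or without low-dose replicate 1 (0.064), and 3 of 5 (RRM1, TK1 and TYMS) rose in Palmul-tang. TK1, which salvages thymidine and peaks in S phase (chr17:78174075-78187233), stood at 69.3, 71.1 and 68.9 CPM at the low dose, 73.4, 76.2 and 74.9 at the medium dose and 102, 102 and 93.9 at the high dose of Sibjeondaebo-tang. The high-dose libraries stood clear of both other doses, a rise of 42.2% (log2 change 0.51, SE 0.052, adjusted p = 2.56e-09). In Palmul-tang TK1 read 73.9, 66.2 and 64.8 CPM at the low and 80.4, 78.4 and 80.4 at the high dose, again without overlap but with a smaller rise (log2 change 0.22, SE 0.052, adjusted p = 0.00798). The change of TK1 in Palmul-tang lost its call without low-dose replicate 2 (adjusted p = 0.0689) and without low-dose replicate 3 (0.0985).

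RRM1, the large subunit of ribonucleotide reductase (chr11:4094707-4138876), read 108, 107 and 105 CPM at the low, 122, 118 and 117 at the medium and 139.6, 142 and 131 at the high dose of Sibjeondaebo-tang. The 3 doses did not overlap and the order followed the dose (log2 change 0.37, SE 0.043, adjusted p = 3.71e-08 for high against low). In Palmul-tang the low-dose values of RRM1 were 112, 109 and 105 and the high-dose values 132, 122 and 122 CPM, also apart (log2 change 0.21, SE 0.043, adjusted p = 0.00205). Its partner subunit RRM2 rose in Sibjeondaebo-tang (log2 change 0.29, SE 0.043, adjusted p = 2.5e-06), and in Palmul-tang its change was 0.13 (adjusted p = 0.087).

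TYMS, the enzyme that makes thymidylate and the target of fluoropyrimidine drugs (chr18:657604-673578), was the 1 member that passed in all 3 replicated formulas. Low-dose values were 47.9, 48.3 and 46.3 CPM in Sibjeondaebo-tang, 46.4, 45.5 and 44.4 in Palmul-tang and 44.9 and 44.2 in Samul-tang. At the high dose they were 65.2, 63.5 and 58.1 CPM in Sibjeondaebo-tang, 54.8, 53.6 and 56.1 in Palmul-tang and 55.2 and 52.5 in Samul-tang, so no low-dose library reached a high-dose one of its formula. The log2 changes of TYMS were 0.39 (SE 0.048, adjusted p = 9.74e-08), 0.27 (SE 0.048, 0.00038) and 0.28 (SE 0.059, 0.0106). The call in Samul-tang did not hold on library totals (adjusted p = 0.105) or without low-dose replicate 2 (0.0589), low-dose replicate 3 (0.138) or high-dose replicate 2 (0.2). TYMS exons overlap ENOSF1 and TYMSOS on the other strand, and since it is not stated whether counting used strand, reads there may be shared.

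Origin licensing moved with the dose in Sibjeondaebo-tang in 5 of 5 genes, 4 up and ORC6 down, and in 2 of 5 in Palmul-tang, both up. CDT1, which brings the MCM ring to origins (chr16:88803213-88809258), read 23.6, 19.9 and 20.7 CPM at the low, 23.6, 22.7 and 23.8 at the medium and 31.6, 29.1 and 27.5 at the high dose of Sibjeondaebo-tang. The 3 high-dose libraries were the highest of all extract libraries (log2 change 0.46, SE 0.074, adjusted p = 1.11e-05). In Palmul-tang CDT1 went from 22.2, 20.7 and 21.97 to 21.6, 25.9 and 24.98 CPM with overlapping groups and did not pass (log2 change 0.16, SE 0.075, adjusted p = 0.321). ORC1, the ATPase subunit of the origin recognition complex, went from 19.6, 19.7 and 18.6 to 24.6, 23.3 and 23.3 CPM in Sibjeondaebo-tang (log2 change 0.30, SE 0.061, adjusted p = 0.00022). In Palmul-tang it went from 20.1, 19.1 and 17.99 to 24.2, 23.04 and 21.97 CPM (log2 change 0.28, SE 0.061, adjusted p = 0.00482); on library totals the changes of ORC1 were 0.15 in Sibjeondaebo-tang (0.0681, not called) and 0.25 in Palmul-tang (0.0166). The Palmul-tang call of ORC1 was lost without low-dose replicate 3 (adjusted p = 0.0706) and without high-dose replicate 1 (0.0564). CDC6, the loader of the MCM ring, rose in both (0.14 and 0.16), with adjusted p = 0.0628 in Sibjeondaebo-tang without low-dose replicate 2 and 0.349 in Palmul-tang without high-dose replicate 1, and on library totals it changed by -0.01 in Sibjeondaebo-tang (0.904). GMNN, the inhibitor of CDT1, rose in Sibjeondaebo-tang (log2 change 0.20, SE 0.056, adjusted p = 0.00463) but was 0.05 on library totals (0.604), and its change in Palmul-tang was 0.03 (95% interval -0.09 to 0.14).

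ORC6, a small subunit of the same complex (chr16:46689643-46698394), went the other way. It read 17.4, 18.3 and 16.9 CPM at the low and 16.5, 16.3 and 13.5 at the high dose of Sibjeondaebo-tang, with replicate 3 of the high dose lowest (log2 change -0.19, SE 0.072, adjusted p = 0.0396). Without that library the change of ORC6 was -0.07 (adjusted p = 0.467), and its call was also lost without low-dose replicates 1 (0.0692) or 2 (0.156) and high-dose replicate 2 (0.0528). DESeq2 did not call it (0.0886), while on library totals the change of ORC6 was -0.34 (0.000567). In Palmul-tang ORC6 read 16.4, 16.3 and 16.3 CPM at the low and 18.1, 17.2 and 20.3 at the high dose, all higher, though not past the threshold (log2 change 0.18, adjusted p = 0.176).

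Of the 12 helicase genes, which comprise the MCM ring, MCM10, CDC45 and the GINS complex, 9 rose and 0 fell in Sibjeondaebo-tang (median log2 change 0.24) and 4 rose (MCM2, MCM4, MCM5 and GINS4) and 0 fell in Palmul-tang (0.16). MCM5 (chr22:35400063-35425430) read 62.7, 58.98 and 56.4 CPM at the low, 64.5, 63.7 and 63.5 at the medium and 84.3, 82.9 and 74.8 at the high dose of Sibjeondaebo-tang. Low and medium doses lay close together and the high dose stood apart from both (log2 change 0.44, SE 0.049, adjusted p = 1.33e-08). MCM2 behaved alike in that formula, at 52.4, 50.6 and 54.8 CPM at the low, 54.5, 55.4 and 54.8 at the medium and 73.8, 70.7 and 61.02 at the high dose (log2 change 0.38, SE 0.056, adjusted p = 2.17e-06), with replicate 3 lowest of the high-dose libraries.

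Inside the ring the estimated changes differed in size, though differences between subunits were not tested. MCM7 (0.29), MCM6 (0.26, but 0.11 on library totals, where it did not pass) and MCM4 (0.13, but -0.02 on library totals) rose in Sibjeondaebo-tang by less than MCM5 and MCM2, and MCM3 did not pass (log2 change 0.11, adjusted p = 0.0814). The 95% interval of MCM3, 0 to 0.21, did not reach that of MCM5, 0.34 to 0.54, these being the smallest and the largest estimates of the ring. All 6 ring subunits had positive changes in Palmul-tang, from 0.09 in MCM6 to 0.22 in MCM2. The Palmul-tang calls depended on single libraries: with 1 library left out the adjusted p of MCM2 reached 0.147 (without low-dose replicate 2), that of MCM4 0.126 (without the same library) and that of MCM5 0.315 (without low-dose replicate 3). Of the GINS genes, whose 4 products form a tight complex, all 4 rose in Sibjeondaebo-tang, from 0.19 in GINS1 to 0.36 in GINS2, and GINS4 alone passed in Palmul-tang (log2 change 0.28, SE 0.079, adjusted p = 0.0369). On library totals GINS2 alone of the 4 passed in Sibjeondaebo-tang, and the Palmul-tang call of GINS4 was lost (adjusted p = 0.104). That Palmul-tang call held in 6 of 13 alternatives, with adjusted p up to 0.184. GINS4 overlapped in Sibjeondaebo-tang, at 13.95, 14.9 and 16.8 CPM at the low and 19.2, 17.8 and 16.3 at the high dose, and lost its call there without low-dose replicates 1 (adjusted p = 0.105) or 2 (0.0586) or high-dose replicate 1 (0.0789). GINS1 lost its call without low-dose replicate 2 (0.145). CDC45 and MCM10, which join the ring as it is activated, did not pass in either formula (0.10 and 0.10 in Sibjeondaebo-tang, 0.18 and 0.16 in Palmul-tang).

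Of the polymerases and primase 3 of 8 rose, 1 fell and 4 did not pass in Sibjeondaebo-tang, and 2 of 8 rose and 0 fell in Palmul-tang. PRIM1, the catalytic primase subunit, read 15.4, 16.3 and 14.99 CPM at the low and 21.3, 19.1 and 18.8 at the high dose of Sibjeondaebo-tang (log2 change 0.34, SE 0.062, adjusted p = 6.17e-05). In Palmul-tang PRIM1 went from 16.7, 16.5 and 15.99 to 21.7, 19.9 and 18.7 CPM (log2 change 0.30, SE 0.062, adjusted p = 0.00273), and without high-dose replicate 1, the highest library, the adjusted p was 0.0549. POLA2, the regulatory subunit of polymerase alpha, rose in Sibjeondaebo-tang from 19.3, 19.5 and 18.4 to 24.4, 25.3 and 23.9 CPM without overlap (log2 change 0.36, SE 0.062, adjusted p = 2.05e-05). Its catalytic partner POLA1 did not pass there (log2 change 0.02, 95% interval -0.1 to 0.14), so the interval excluded the change of POLA2. PRIM2, the other primase gene, did not pass in either formula, and whether PRIM1 and PRIM2 differed was not tested. Against vehicle, PRIM2 was called higher at the high dose of Sibjeondaebo-tang, though not on library totals (log2 change 0.208, adjusted p = 0.0675).

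The 2 listed subunits of polymerase epsilon were called in opposite directions in Sibjeondaebo-tang, though both of their calls there were lost under some alternatives. POLE2, an accessory subunit, rose in both formulas (log2 change 0.31, SE 0.083, adjusted p = 0.0036 in Sibjeondaebo-tang, and log2 change 0.33, SE 0.081, adjusted p = 0.0122 in Palmul-tang). The Sibjeondaebo-tang call of POLE2 was lost on library totals (0.155, adjusted p = 0.126), and the Palmul-tang call was lost without low-dose replicate 2 (0.111), without high-dose replicate 1 (0.0921) and in a fit of only the 2 groups (0.054). POLE, the catalytic subunit (chr12:132623753-132687365), read 72.5, 66.9 and 70.02 CPM at the low, 72.3, 71.1 and 69.6 at the medium and 68.1, 62.8 and 61.4 at the high dose of Sibjeondaebo-tang. One high-dose library of POLE lay within the low-dose range, and the fall was just past the threshold (log2 change -0.12, SE 0.05, adjusted p = 0.0491). It was lost with DESeq2 (0.0798), without low-dose replicates 1 (0.201) or 3 (0.0967), and without high-dose replicates 2 (0.284) or 3 (0.374). For polymerase delta, POLD1 (0.10) and POLD3 (0.004) did not pass in Sibjeondaebo-tang or in Palmul-tang (0.07 and 0.18).

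PCNA, the sliding clamp (chr20:5114953-5126626), read 139, 147 and 145 CPM at the low, 160.3, 149 and 144 at the medium and 194, 177 and 169 at the high dose of Sibjeondaebo-tang. All 3 high-dose libraries exceeded all 6 at the lower doses (log2 change 0.33, SE 0.062, adjusted p = 0.00015), though on library totals the change was 0.17 (0.0712). In Palmul-tang PCNA read 145, 146 and 137 at the low and 175, 141 and 165 CPM at the high dose, with replicate 2 of the high dose inside the low-dose range, and did not pass (adjusted p = 0.15).

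The clamp loader, a ring of 5 RFC subunits, divided. RFC2 (0.30), RFC5 (0.24) and RFC3 (0.21) rose in Sibjeondaebo-tang while RFC1 and RFC4 fell. On library totals none of the 3 rises passed, at 0.15 for RFC2 (adjusted p = 0.0632), 0.09 for RFC5 (0.296) and 0.05 for RFC3 (0.588). RFC2 read 23.8, 24.2 and 24.3 CPM at the low and 31.9, 28.6 and 28.6 at the high dose (log2 change 0.30, SE 0.055, adjusted p = 4.95e-05), and the RFC3 call was lost without high-dose replicate 1 (0.0521). RFC4 (chr3:186789880-186807058) read 17.8, 16.4 and 18.3 CPM at the low, 17.9, 16.5 and 16.8 at the medium and 16.1, 15.2 and 14.1 at the high dose of Sibjeondaebo-tang, so its lowest low-dose library was just above the highest high-dose one (log2 change -0.21, SE 0.068, adjusted p = 0.0145). In Palmul-tang its 3 high-dose libraries, 20.5, 18.2 and 19.7 CPM, lay above the low-dose ones, 17.03, 17.9 and 17.4, but did not pass (log2 change 0.16, SE 0.066, adjusted p = 0.211). RFC1, the large subunit, read 41.6, 40.5 and 37.8 CPM at the low and 34.9, 34.2 and 38.1 at the high dose of Sibjeondaebo-tang, where high-dose replicate 3 lay within the low-dose range (log2 change -0.16, SE 0.051, adjusted p = 0.0126). In Palmul-tang RFC1 changed by 0 (95% interval -0.11 to 0.11). Both falls depended on single libraries and were larger on library totals (-0.36 for RFC4 and -0.31 for RFC1). The RFC4 call was lost without low-dose replicates 1 (0.0507) or 3 (0.0749) and without high-dose replicates 2 (0.061) or 3 (0.169), and the RFC1 call without low-dose replicate 1 (0.0831) and high-dose replicates 1 (0.13) or 2 (0.172). In Palmul-tang RFC3 rose (log2 change 0.22, SE 0.062, adjusted p = 0.0471) and lost its call under every single-library omission tried (0.0612 to 0.214).

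Single-strand binding and lagging-strand genes rose in Sibjeondaebo-tang, 5 of 5, with log2 changes from 0.25 in RPA1 to 0.33 in RPA3, of which LIG1 alone passed on library totals. RPA1, the large RPA subunit, read 93.5, 98.7 and 96.6 CPM at the low, 104, 98.5 and 98.4 at the medium and 116, 119 and 107 at the high dose (log2 change 0.25, SE 0.039, adjusted p = 8.7e-06). Its 3 high-dose libraries were above all those of the lower doses. In Palmul-tang the change of RPA1 was 0.07 (adjusted p = 0.41). LIG1, the ligase that seals lagging-strand fragments, rose in both formulas. It read 34.98, 34.6 and 34.9 CPM at the low and 44.6, 43.2 and 40.7 at the high dose of Sibjeondaebo-tang (log2 change 0.30, SE 0.049, adjusted p = 1.37e-05), and 36.1, 33.6 and 31.7 and 41.5, 40.2 and 42.1 CPM in Palmul-tang (log2 change 0.29, SE 0.049, adjusted p = 0.000254). On library totals the changes of LIG1 were 0.15 and 0.27, both past the threshold. FEN1, the flap nuclease, rose in both as well (0.25 and 0.21), and lost its Palmul-tang call without low-dose replicate 3 (0.123) and without high-dose replicates 1 (0.0705) or 3 (0.0521). RPA3 lost its call in Sibjeondaebo-tang without low-dose replicate 1 (0.0659) or high-dose replicate 1 (0.0548), the latter its highest library.

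Of the chromatin genes CHAF1A and CHAF1B, which place histones on new DNA, both rose in Sibjeondaebo-tang and neither passed in Palmul-tang or, in Sibjeondaebo-tang, on library totals (adjusted p = 0.522 and 0.22). CHAF1B read 19.5, 17.8 and 17.2 CPM at the low and 22.8, 21.4 and 20.7 at the high dose of Sibjeondaebo-tang (log2 change 0.25, SE 0.061, adjusted p = 0.0014). CHAF1A read 29.5, 26.2 and 25.95 and 32.5, 31.2 and 30.3 CPM (log2 change 0.20, SE 0.062, adjusted p = 0.00961), also apart, and its call was lost without low-dose replicates 2 (0.0504) or 3 (0.0553). UHRF1, which reads hemimethylated DNA, did not pass (log2 change 0.04, 95% interval -0.08 to 0.17).

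None of the 3 G1/S regulators passed in either formula. E2F1, the activator whose element is printed above, read 16.2, 16.5 and 19.7 CPM at the low and 20.3, 18.1 and 17.1 at the high dose of Sibjeondaebo-tang, with overlapping ranges (log2 change 0.08, SE 0.075, adjusted p = 0.403). CCNE1 and CCNE2, the cyclins of CDK2 at S-phase entry, changed by 0.05 and -0.17 (95% intervals -0.09 to 0.19 and -0.4 to 0.06). In Palmul-tang the 3 changes were -0.10 for E2F1, -0.003 for CCNE1 and 0.01 for CCNE2, none past the threshold. CCNE2 was the least abundant member, at 4.34 to 6.16 CPM over the libraries of Sibjeondaebo-tang at the low and high doses, and its interval was the widest of the members.

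**Figure D3:**
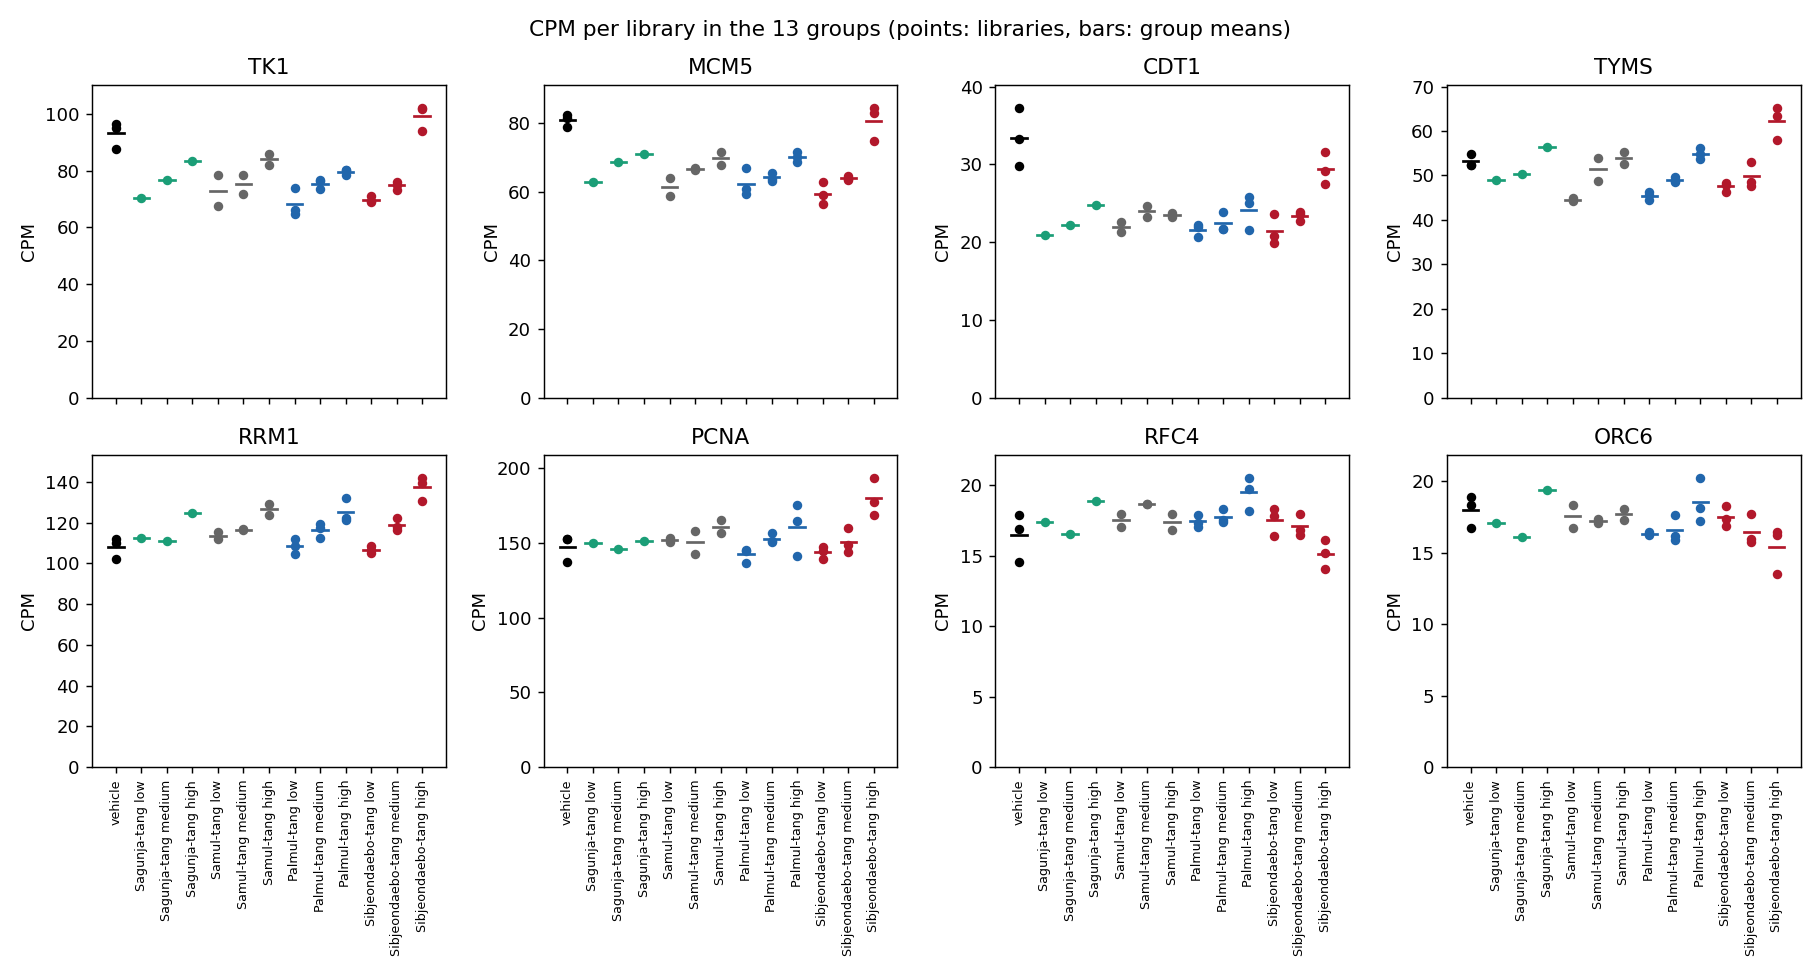
CPM (vertical axis, starting at 0) of 8 genes in each library (points) of the 13 groups (horizontal axis), with bars for group means. Among the extract groups the mean of TK1, MCM5, CDT1, TYMS, RRM1 and PCNA is highest, and that of RFC4 and ORC6 lowest, at the high dose of Sibjeondaebo-tang.

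Medium against low dose gave 0 calls among members in Sibjeondaebo-tang, Palmul-tang and Samul-tang by edgeR, against 0.0113%, 0.00565% and 0% of all genes. DESeq2 also gave 0 in each, with 19 members lacking an adjusted p in Sibjeondaebo-tang. At an unadjusted p under 0.05, 10, 12 and 2 members passed, and the members' median log2 changes were 0.07, 0.09 and 0.05. At that unadjusted threshold 1108 of the 17701 genes tested passed in Sibjeondaebo-tang. For Palmul-tang and Samul-tang the share of all genes at an unadjusted p is not given here. High against medium dose gave 24 members up and 2 down (POLE and RFC1) in Sibjeondaebo-tang, where 30.6% of all genes passed, with a median of 0.17. It gave 0 in Palmul-tang (14 at an unadjusted p under 0.05, and 0 by DESeq2, against 0.859% of all genes, 0.621% lower) and 0 in Samul-tang (6 and 0, against 0.339%). TK1 showed the late step plainly, with 0.10 from low to medium (adjusted p = 0.804) and 0.41 from medium to high (3.21e-07). In Palmul-tang TK1 changed by 0.15 from low to medium. Group means rose at both steps in 39 members in Sibjeondaebo-tang and 38 in Palmul-tang, against 27.7% and 23.1% of all genes, in 22 in Samul-tang, against 21.2%, and in 21 in Sagunja-tang, against 20.4%. They fell at both steps in 3, 0, 2 and 1 members in the same order of formulas, against 28.7%, 22.1%, 20.8% and 19.9% of all genes.

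Summed over the 47 members, the level was 2251 to 2332 CPM in the vehicle libraries. It went from 2037 to 2069 at the low dose to 2315 to 2520 at the high dose of Sibjeondaebo-tang, and from 2011 to 2113 to 2222 to 2338 in Palmul-tang. Samul-tang went from 2103 to 2143 up to 2230 to 2278. The sum at the low dose was below every vehicle library in each formula. Sagunja-tang, with 1 library per dose and so no replicate check, gave 2119, 2135 and 2298 CPM. In Sagunja-tang 42 of 47 members were higher in the high-dose than in the low-dose library, against 50.9% of all genes, with a median log2 ratio of 0.12. TYMS read 48.99, 50.3 and 56.4 CPM and TK1 70.4, 76.8 and 83.5 CPM at the 3 doses of Sagunja-tang.

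Sibjeondaebo-tang was compared with Palmul-tang at matched doses. At the high dose 12 members were higher in Sibjeondaebo-tang (CDT1, FEN1, MCM2, MCM5, MCM6, MCM7, PCNA, RPA1, RRM1, RRM2, TK1 and TYMS) and 5 lower (ORC6, POLD3, POLE, RFC1 and RFC4), where 30.3% of all genes passed, 14.3% higher and 16% lower. TK1 was 0.32 higher on the log2 scale (SE 0.051, adjusted p = 1.77e-05), CDT1 0.29 (SE 0.074, 0.00354) and RFC4 -0.37 (SE 0.068, 9.52e-05). In all 3 of these genes the libraries of the 2 formulas were apart. PCNA (0.17, adjusted p = 0.0439) overlapped and lost its call without Palmul-tang high-dose replicate 2 (0.296) or 3 (0.05), or Sibjeondaebo-tang high-dose replicate 1 (0.137). The balance rested on the scaling: on library totals 1 member was higher and 11 lower, against a median of -0.11 for all genes, and 3 of the 17 calls (POLE, RFC4 and TK1) held under every alternative tried. At the medium and the low dose edgeR gave 0 calls among members, against 0% of all genes at both, and DESeq2 gave 0 as well. At an unadjusted p under 0.05, 0 and 2 members passed, with no share of all genes beside them. The differences at the medium dose lay between -0.12 and 0.13 on the log2 scale. Palmul-tang against Samul-tang at the high dose gave 0 members by edgeR, against 0.192% of all genes, and 0 by DESeq2. At an unadjusted p under 0.05, 3 members passed (MCM10, POLE2 and RFC4, chosen after their values were seen), with no share of all genes beside them. The differences of these 3 members were 0.18, 0.23 and 0.17, with 95% intervals 0.03 to 0.33, 0.04 to 0.42 and 0.01 to 0.32.

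Whether the response to dose itself differed was tested as the high minus low change of Sibjeondaebo-tang minus that of Palmul-tang. It was larger in Sibjeondaebo-tang for TK1, MCM5 and RPA1 and lower for RFC4, ORC6 and POLE, 3 of the 47 members in each direction, where 14.9% of all genes passed, 5.59% higher and 9.3% lower, so the members' count was near that of genes in general. TK1 (log2 change 0.28, SE 0.073, adjusted p = 0.0072), MCM5 (log2 change 0.27, SE 0.069, adjusted p = 0.00595) and RFC4 (log2 change -0.37, SE 0.095, adjusted p = 0.00652) kept their calls under every library left out, and RFC4 alone also on library totals, where TK1 was 0.16 (adjusted p = 0.183) and MCM5 0.15 (0.158). On that scale 0 members were higher and 5 lower, against a median of -0.13 for all genes. ORC6 (log2 change -0.37, SE 0.1, adjusted p = 0.0108) was lost without Palmul-tang high-dose replicate 3 (0.0504) and without Sibjeondaebo-tang high-dose replicate 3 (0.0746). RPA1 (log2 change 0.17, SE 0.056, adjusted p = 0.033) was lost without Palmul-tang low-dose replicate 1 (0.0592) or 3 (0.0543), Palmul-tang high-dose replicate 2 (0.0533) or Sibjeondaebo-tang low-dose replicate 1 (0.0627), and was 0.04 on library totals (0.745). POLE (log2 change -0.20, SE 0.07, adjusted p = 0.0492) was lost with DESeq2 (0.0682) and without any one of 8 libraries, with adjusted p up to 0.215. For most of the other members the difference in response was not resolved, as for CDT1 (log2 change 0.30, SE 0.1, adjusted p = 0.0532). On TMM scaling LIG1, ORC1 and PRIM1 differed by 0.01 (95% interval -0.14 to 0.16), 0.02 (-0.16 to 0.2) and 0.04 (-0.14 to 0.23). On library totals their changes in Sibjeondaebo-tang were 0.15, 0.15 and 0.19 and those in Palmul-tang 0.27, 0.25 and 0.27.

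Against vehicle members were called in both directions. The comparisons of the formulas with vehicle share the 3 vehicle libraries, so they are given side by side. At the low dose 21 members were lower and 2 higher in Sibjeondaebo-tang, 20 and 2 in Palmul-tang and 16 and 2 in Samul-tang, where 36.9%, 36% and 30.7% of all genes passed. In each formula the members' lower calls exceeded the background of lower calls, at 18.2%, 17.8% and 15.1% of all genes. At the medium dose 16 were lower and 7 higher in Sibjeondaebo-tang, 14 and 6 in Palmul-tang and 11 and 4 in Samul-tang, against 36.8%, 37.9% and 24% of all genes. At the high dose 7 were lower and 12 higher in Sibjeondaebo-tang, 9 and 10 in Palmul-tang and 11 and 5 in Samul-tang, against 41.8% of all genes (20% higher), 37.1% (19% higher) and 29.2% (15.3% higher). In each formula the members thus passed at the high dose about as often as genes in general. On library totals the high-dose balance of Sibjeondaebo-tang turned to 13 lower and 6 higher. In Palmul-tang the balance at the high dose turned without vehicle replicate 1 (8 lower, 6 higher) and without high-dose replicate 1 (10 lower, 7 higher).

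CDT1 was the member farthest below vehicle at the low dose. The vehicle libraries read 37.3, 33.3 and 29.8 CPM, above every extract library of the low and medium doses, which ran from 19.9 to 24.7. At the low dose CDT1 changed by -0.65 with Sibjeondaebo-tang (adjusted p = 6.6e-08), -0.63 with Palmul-tang (1.15e-07) and -0.61 with Samul-tang (2.91e-06). At the high dose it remained lower by 0.47 in Palmul-tang and 0.51 in Samul-tang. In Sibjeondaebo-tang it overlapped the vehicle (log2 change -0.19, SE 0.072, adjusted p = 0.035) and lost its call there without vehicle replicates 1 (0.307) or 2 (0.0707) or high-dose replicates 2 (0.128) or 3 (0.238). E2F1, at 23.5, 23.8 and 20.7 CPM in the vehicle, was lower at the high dose by 0.30 with Sibjeondaebo-tang, 0.45 with Palmul-tang and 0.42 with Samul-tang (adjusted p = 0.00174, 1.89e-05 and 0.000286). POLD1, the catalytic subunit of polymerase delta, stood at 52.9, 50.3 and 51.02 CPM in the vehicle and was lower at every dose, by 0.36, 0.35 and 0.26 from low to high dose of Sibjeondaebo-tang. UHRF1, at 37.8, 34.2 and 34.3 CPM, was lower by 0.37, 0.35 and 0.33 in the same groups. POLE was called lower than vehicle at the low and the high dose of all 3 formulas. Its call at the high dose of Sibjeondaebo-tang held under every alternative tried (log2 change -0.501 on library totals, adjusted p = 1.01e-09). The POLE calls at the high dose of Palmul-tang and at both of these doses of Samul-tang were lost under some alternatives.

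PRIM1 and RFC3 lay on the other side of the vehicle. PRIM1 read 14.2, 13.9 and 14.8 CPM in the vehicle libraries, below every extract library. At the high dose it was higher by 0.47 with Sibjeondaebo-tang, 0.50 with Palmul-tang and 0.38 with Samul-tang (adjusted p = 5.54e-07, 4.18e-07 and 0.000166). RFC3 read 16.7, 17.9 and 20.2 CPM in the vehicle and was higher by 0.39, 0.37 and 0.28 at the high dose of the same formulas. RFC1 was called higher than vehicle at the low dose of these formulas (0.2, 0.204 and 0.217 on library totals). It was also called higher at the high dose of Palmul-tang and Samul-tang, but not of Sibjeondaebo-tang. Of these RFC1 calls only that at the low dose of Palmul-tang held under every alternative tried. RPA3 showed the largest excess over vehicle at the high dose of Sibjeondaebo-tang (log2 change 0.55, SE 0.1, adjusted p = 0.000163), from 16.5, 20.8 and 18.2 CPM in the vehicle to 31.2, 25.4 and 24.5 there. TYMS crossed from below to above the vehicle with dose in Sibjeondaebo-tang, from -0.16 (adjusted p = 0.00722) at the low to 0.23 (0.000277) at the high dose, with vehicle libraries at 52.4, 54.9 and 52.4 CPM. Without vehicle replicate 2 the adjusted p of the low-dose value was 0.05, and on library totals TYMS passed at neither dose (0.111 and 0.0669). TK1 and MCM5 reached the vehicle without passing it, at 0.09 (95% interval -0.02 to 0.2) and -0.003 (-0.1 to 0.1) at the high dose of Sibjeondaebo-tang.

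**Figure D4:**
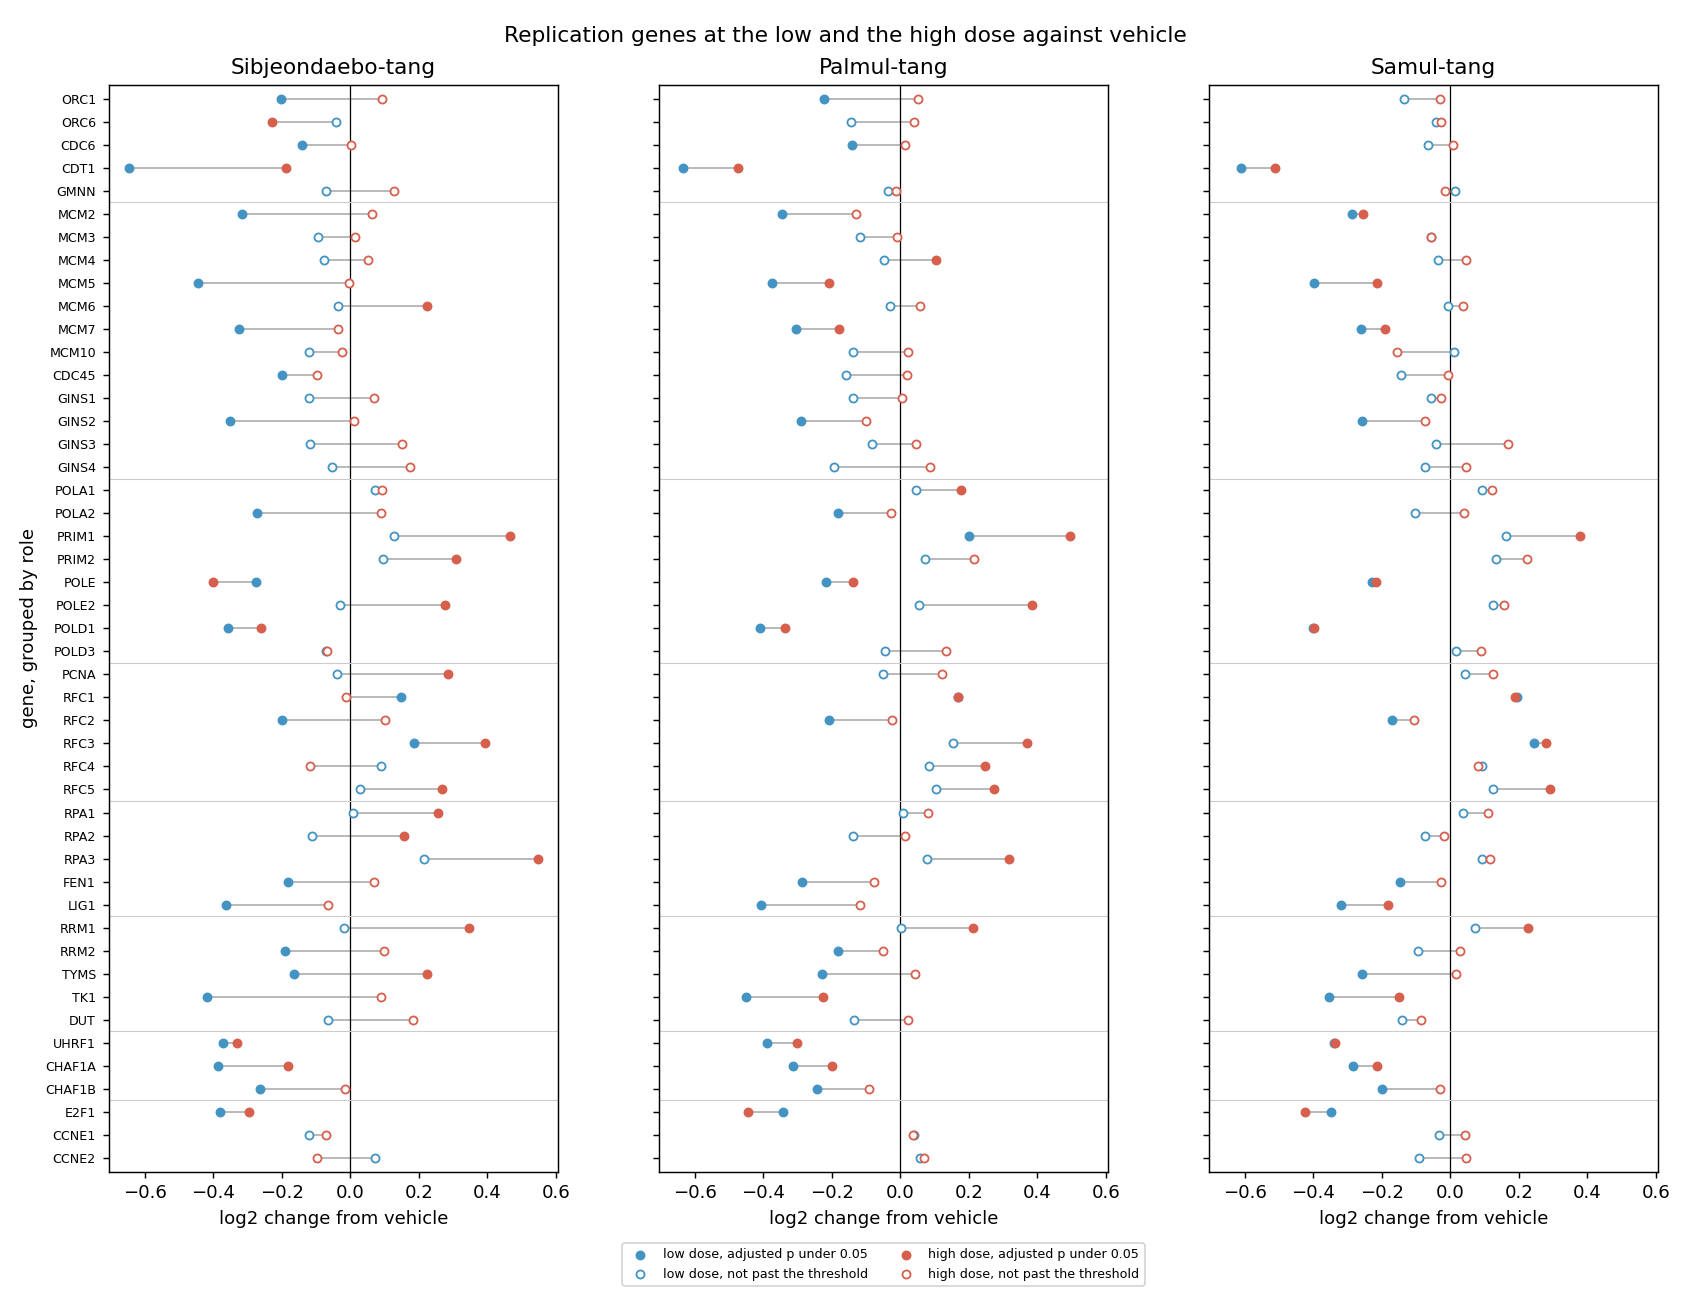
Log2 change from vehicle (horizontal axis) at the low dose (blue) and the high dose (red) of each gene (rows, grouped by role) in 3 formulas, joined by a line, with filled points for an adjusted p under 0.05. CDT1 is farthest left at the low dose, PRIM1 and RFC3 are right of 0, and the lines of Sibjeondaebo-tang mostly run from left to right.

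Among 41 other genes of replication that are not members, 16 rose (39%) and 5 fell (12.2%) with dose in Sibjeondaebo-tang, against 18.5% and 19.9% of all genes. In Palmul-tang 4 rose and 0 fell, against 3.47% of all genes, and 0 passed in Samul-tang by edgeR, where 5 had an unadjusted p under 0.05. RNASEH2A, a subunit of the nuclease that removes RNA from DNA, rose in Sibjeondaebo-tang (log2 change 0.48, SE 0.055, adjusted p = 3.08e-08) and in Palmul-tang (log2 change 0.28, SE 0.056, adjusted p = 0.00141). ASF1B, a histone chaperone, rose in Sibjeondaebo-tang (log2 change 0.44, SE 0.074, adjusted p = 1.55e-05), as did DTYMK, the thymidylate kinase downstream of TK1 and TYMS (log2 change 0.36, SE 0.07, adjusted p = 0.00017). The 5 falls, a smaller share than that of all genes, were ATAD5 (-0.42), CLSPN (-0.27), ORC2 (-0.25), CDC7 (-0.22) and MCM8 (-0.14), named after their values were seen.

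Of 28 genes of E2F and cell cycle control 26 were tested, and 5 rose and 1 fell in Sibjeondaebo-tang, a smaller share than the 38.4% of all genes that passed. In Palmul-tang 1 rose and 0 fell, against 3.47% of all genes that passed. In Samul-tang 0 passed by edgeR, against 1.34%, with 4 at an unadjusted p under 0.05. CDK4 (0.29) and its partner CCND3 (0.23) rose, and so did TFDP1 and the inhibitors CDKN1A (0.27) and CDKN1B (0.13). RBL2, a pocket protein, fell (log2 change -0.25, SE 0.05, adjusted p = 0.000201). Of 28 mitosis genes 20 rose and 3 fell in Sibjeondaebo-tang, 22 rose and 0 fell in Palmul-tang and 5 rose in Samul-tang. Of all genes 38.4%, 3.47% and 1.34% passed in these formulas. The rise with dose was not particular to the members, as 71.4% of the mitosis genes and 68.1% of the members rose in Sibjeondaebo-tang. In Palmul-tang the mitosis genes also rose more often than the members, of which 14 of 47 rose. The counts of these 3 lists are on TMM scaling, and were not computed on library totals. CDC20, the activator of the anaphase-promoting complex, rose by 0.50 and 0.33 in Sibjeondaebo-tang and Palmul-tang (adjusted p = 4.29e-09 and 0.000116). CENPE, MKI67 and CENPF fell in Sibjeondaebo-tang (-0.52, -0.31 and -0.22), and of these CENPF rose in Palmul-tang (0.23, adjusted p = 0.0162).

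The E2F-type letters were in the promoters of 11 of the 27 members with an entry that rose in Sibjeondaebo-tang, 4 of the 9 that did not pass and 1 (POLE) of the 4 that fell. The letters CCAAT, the NF-Y element, were in 54.5% of member promoters on either strand, against 50.0% in the other replication genes, 80.8% in the mitosis genes and 32.0% of all promoters. The letters TTTGAA and TTCGAA, forms of the cell cycle homology region of mitotic promoters, were in 5.45% of member promoters and 61.5% of the 26 promoters of the mitosis genes, against 14.3% of all. By call in Sibjeondaebo-tang, the median annotated exon length was 3871 bases for the 32 that rose, 4667 for the 11 that did not pass and 5514 for the 4 that fell, which ranged from 2997 in RFC4 to 16609 in POLE.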

How the data were processed

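RNA of A549 cultures was sequenced from a directional library kit, per the labels' protocols. FastQC 0.11.9, Trim Galore 0.6.5, STAR 2.7.3a, RSEM 1.3.3 and the build GRCh38 are named in the submitters' processing notes. Which annotation release was used, and whether counting used strand, is not given in the sources used here. The authors deposited 1 table of expected counts per gene, of which 8.5 to 9.82% of values per library were not whole, and these were rounded. Of its 270 columns 30 matched samples used here and 240 were not used.

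A model with a mean for each of the 13 groups was fitted over the 30 libraries with edgeR 4.0.16 in R 4.3.3 (filterByExpr, TMM factors of 0.923 to 1.05, robust quasi-likelihood F-test). Benjamini-Hochberg adjustment covered the 17701 genes tested, and an adjusted p under 0.05 was called, with "rose" and "fell" used of calls. All adjusted p-values are from this model unless DESeq2 1.42.0 is named. Where a count at an unadjusted p stands beside a percentage of all genes, that percentage is for adjusted p. Standard errors are the log2 change over the root of F, and 95% intervals use 17 residual degrees of freedom. Library totals had a median of 32383996 counts, and what limits precision was not tested. The procedure was also run on simulated data in which few genes changed, which could not test the dependence on scaling.

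Alternatives were RLE size factors, no filter, a replicate block, only the groups compared, DESeq2 and each library left out. A fit without vehicle libraries and scaling by library totals were added after the data were seen. Where a group is left with 1 library, that library is assumed to vary like the other groups. Same-numbered libraries of different groups did not deviate together (median correlation 0.0061 over 111 pairs, -0.12 to 0.089), so the numbers were not taken to pair them. Genes were named by rule (the largest rises and falls, and the smallest adjusted p in each role and list), and most other members were named too. Members and lists were chosen with earlier results of these data known. Sequences are from RefSeq (GRCh38.p14), and gene coordinates and exon lengths from the GRCh38 annotation.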

Additional observations from a re-analysis of the deposited data

Results flagged for a closer look

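The response to dose differed between Sibjeondaebo-tang and Palmul-tang in 6 of 47 members, by the test of that difference in edgeR, where 14.9% of all genes passed, so the members passed about as often as genes in general. The difference in log2 change was 0.28 for TK1, 0.27 for MCM5 and 0.17 for RPA1, which rose more in Sibjeondaebo-tang. It was -0.37 for RFC4, -0.37 for ORC6 and -0.2 for POLE, which fell in Sibjeondaebo-tang and were higher, without passing, at the high dose of Palmul-tang. The high-dose libraries of Sibjeondaebo-tang had the lowest scaling factors of the series, and on library totals the 3 positive differences did not pass. The part of the scaling in these differences was not tested further.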

How the results depend on the processing

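On library totals without TMM, the members called were 17 for Sibjeondaebo-tang high against low dose, 8 for Palmul-tang and 0 for Samul-tang. The balance reversed for Sibjeondaebo-tang high dose against vehicle (19 called, 6 higher and 13 lower) and against Palmul-tang high dose (12 called, 1 higher and 11 lower). Member medians on that scale were 0.091 for Sibjeondaebo-tang and -0.003 for Samul-tang high against low dose, and -0.035 for Sibjeondaebo-tang against Palmul-tang. They were -0.031 for Sibjeondaebo-tang and -0.063 for Samul-tang high dose against vehicle, -0.069 and -0.105 for low-dose Sibjeondaebo-tang and Palmul-tang against vehicle, and -0.06 for the difference in dose response. In Sibjeondaebo-tang high against low dose CDC6 reversed to -0.009 and MCM4 to -0.022.

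Without a filter Samul-tang high against low dose gave 2 calls, and the median of Sibjeondaebo-tang against Palmul-tang was 0.11. With only the groups compared, Palmul-tang high against low dose gave 8. With 1 library left out, calls ranged from 4 to 12 for Palmul-tang and 0 to 1 for Samul-tang high against low dose, 11 to 17 for Samul-tang low dose against vehicle (11 without low-dose replicate 3) and 4 to 10 for the difference in dose response (10 without Sibjeondaebo-tang high-dose replicate 3). For Palmul-tang high dose against vehicle they ranged from 14 to 20, and the balance reversed without vehicle replicate 1 (14) and without high-dose replicate 1 (17). With a replicate block the high against low dose counts were 37, 15 and 1 for Sibjeondaebo-tang, Palmul-tang and Samul-tang and 7 members differed in dose response, so no count moved by over 1.5 times. Of 172 alternative counts and medians 147 stayed near the value reported, and of 2366 for single members 2068 kept the call, 296 lost it and 2 reversed. The causes were not tested.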
